A study of Mus musculus with 3 samples.

Results

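The miR-23, miR-27 and miR-24 microRNAs (miRNAs) come from a pair of paralogous gene clusters, called a and b here after their miR-23a and miR-23b hairpins. They were followed as 9 of the 1915 mature mouse miRNAs counted in exosomes, chosen by name: mmu-miR-23a-3p, mmu-miR-23a-5p, mmu-miR-23b-3p, mmu-miR-23b-5p, mmu-miR-27a-3p, mmu-miR-27a-5p, mmu-miR-27b-3p, mmu-miR-27b-5p and mmu-miR-24-3p. The prefix mmu, for mouse, is left out below. The exosomes, small membrane vesicles shed by cells, came from bone-marrow-derived macrophages of adult wild-type C57BL/6 mice. Marrow cells were grown with the macrophage growth factor M-CSF for 24 h, then kept in medium with exosome-free serum, and vesicles were pelleted by ultracentrifugation after 72 h. All samples belong to 1 untreated group of 3 small RNA libraries, replicates 1, 2 and 3, called libraries 1 to 3. The labels do not say whether these came from separate cultures or animals, so every SD and p-value speaks for these 3 libraries alone, and the spread between them may be technical. There is no library of the parent cells, and in a pellet of this kind fewer vesicles with a miRNA and fewer copies per vesicle cannot be told apart.

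A miRNA hairpin is cut to a duplex of a 5p and a 3p strand. The guide strand is loaded into an Argonaute protein and, through its seed near the 5′ end, finds and represses target mRNAs, while the passenger strand is mostly degraded. In the a and b clusters the guides are the 3p strands. The a cluster lies downstream of the myeloid transcription factor PU.1 and favours myeloid over B-cell development in the marrow, miR-27 is known as a brake on fat-cell formation, miR-24 represses cell-cycle genes, and miR-23 is known for repressing glutaminase.

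The mature sequences decide which members share targets and which can be told apart in sequencing, so they are printed here, 5′ to 3′, with the seed (bases 2 to 8) in capitals, from the RefSeq table for GRCm38.p6. It matched 8 of the 9 members, all but miR-23b-3p. The guides come first.
miR-27a-3p: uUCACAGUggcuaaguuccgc
miR-27b-3p: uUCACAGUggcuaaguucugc
miR-23a-3p: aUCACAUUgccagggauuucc
miR-24-3p: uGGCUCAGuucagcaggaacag
Both miR-27 guides carry the seed UCACAGU and differ by the single substitution C19U, counted from the 5′ end of miR-27a-3p. Their first 18 bases are the same, so a read that ends before position 19 fits both. Among 1623 miRNAs of the tables with a RefSeq sequence, which leave out miR-23b-3p, no further miRNA had the miR-27 seed and none shared that of miR-23a-3p. Whether miR-23b-3p shares it was not checked here. The miR-24-3p seed was also held by miR-6369, miR-6410, miR-6413 and miR-5124b, each with 0 counts in every library.

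The passenger strands and the 5p strands of the miR-24 copies separate the clusters better, which is why they are shown as a second set.
miR-27a-5p: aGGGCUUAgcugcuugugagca
miR-27b-5p: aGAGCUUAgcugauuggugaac
miR-23a-5p: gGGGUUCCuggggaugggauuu
miR-23b-5p: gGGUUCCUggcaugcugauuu
miR-24-2-5p: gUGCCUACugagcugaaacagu
miR-24-1-5p: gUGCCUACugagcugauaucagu
The miR-27 5p strands differ at 8 of 22 positions, namely G3A, C13A, U17G, G18U, A19G, G20A, C21A and A22C, counted from the 5′ end of miR-27a-5p. The first of these lies in the seed. The longest run shared by the miR-23 5p strands is 10 bases, and the miR-24 5p strands are alike over their first 16 bases.

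In mm10 (GRCm38) the a cluster occupies chr8:84208518-84208921, plus strand, a stretch of 404 bases with Mir23a, Mir27a and Mir24-2 in this order. GENCODE M21 puts no other gene over Mir23a or Mir27a. Mir24-2 overlaps the antisense miRNA gene Mir3074-2, and its last 2 bases overlap an exon of the long noncoding RNA Gm26532. The b cluster spans 792 bases at chr13:63300484-63301275, plus strand, with Mir23b, Mir27b and Mir24-1, inside the protein-coding gene 2010111I01Rik (Aopep, an aminopeptidase) and antisense to Fancc. Mir23b is intronic in 2010111I01Rik, whereas Mir27b and Mir24-1 lie in introns of some of its transcripts and in exons of others. The miR-24-3p sequence is encoded at chr8:84208875-84208896 and again at chr13:63301251-63301272, so its counts cannot be split between the clusters.

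The libraries held 3008995, 2489984 and 3208617 miRNA counts, and levels are counts per 1000000 miRNA counts of the library (CPM), a scale on which a count of 0 allows up to 3 counts, or 0.997, 1.20 and 0.935 CPM. Each mature strand is 21 to 22 bases long where its sequence is known, so CPM of different members needs no correction for length. Library 1 stood apart from the others for miRNAs in general: among the 134 miRNAs that averaged 100 CPM or more, the median log2 ratio of library 1 was 0.62 to library 2 and 0.96 to library 3, and that of library 2 to library 3 was 0.16. The 7 miRNAs listed as macrophage and myeloid markers were counted in every library and summed to 7.13%, 34.5% and 30.02% of counts. Most of this sum was miR-21a-5p, at 3.73%, 30.5% and 26.1%, so it says little of the other listed markers. They did not move alike: the blood-cell miRNA miR-142a-3p (42.9, 1364 and 819 CPM), miR-142a-5p (292, 818 and 390 CPM) and miR-155-5p (74.8, 2388 and 829 CPM) were also lowest in library 1, miR-146a-5p (33401, 35012 and 36543 CPM) and miR-223-3p (35.6, 52.6 and 33.0 CPM) varied less, and miR-342-3p (149, 106 and 65.4 CPM) was highest there. The 2 erythroid markers summed to 88.1, 26.9 and 15.6 CPM and the 4 stromal markers to 247, 141 and 135 CPM. Both sums were highest in library 1, as were most members and 60.3% of the 353 miRNAs whose counts summed to 30 or more. Most of the stromal sum was miR-199a-3p (223, 125 and 114 CPM). MiR-143-3p was at 20.9, 14.1 and 19.6 CPM, miR-214-3p at 2.33, 1.61 and 0.623 CPM, and miR-145a-5p at 0 in library 2. The 3 epithelial markers summed to 64.1, 433 and 265 CPM, lowest in library 1, and the 2 endothelial markers, both strands of miR-126a, to 25.9, 44.6 and 25.2 CPM. The liver marker miR-122-5p was at 322, 548 and 1500 CPM, and the lymphoid miR-150-5p was at 0 counts in libraries 1 and 2. The part of these differences in the results below was not tested.

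All 9 strands were counted in every library, and together they took 18.8% (Wilson 95% interval 18.7 to 18.8), 6.51% (6.47 to 6.54) and 5.00% (4.98 to 5.03) of miRNA counts in libraries 1, 2 and 3. Wilson intervals cover counting error only. The mean was 10.1% ± 7.56 (SD, n = 3), and 5.75% without library 1. Library 1 thus held 2.89 times the share of library 2 and 3.75 times that of library 3, ratios that became 1.89 and 2.06 with TMM factors, a scaling that centres the bulk of miRNAs. The 5 guides made up 99.8% ± 0.0592 of the members' counts (SD, n = 3).

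**Figure D1:**
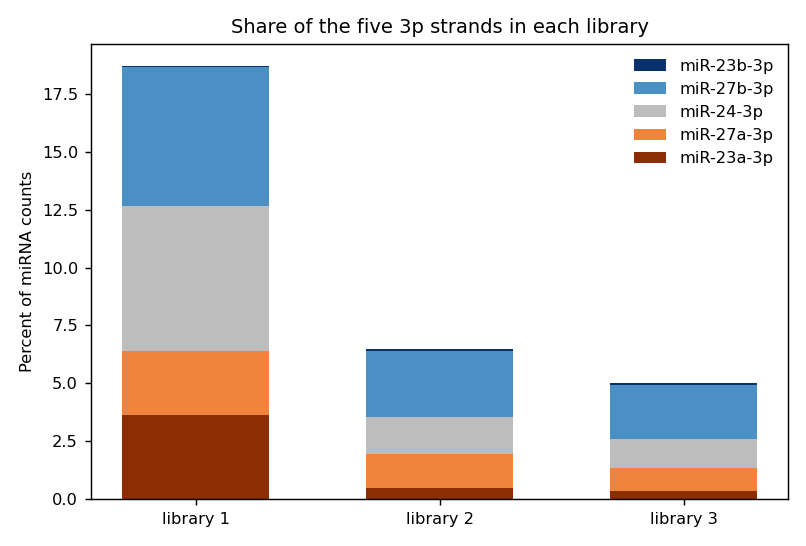
Percent of all miRNA counts taken by each of the 5 guide (3p) strands, stacked per library, with a-cluster guides at the bottom, miR-24-3p in the middle and b-cluster guides on top. The stack reaches 18.7% in library 1, 6.50% in library 2 and 4.99% in library 3, and the miR-23a-3p segment differs by the largest factor between library 1 and the others.

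The miR-27 guides were the largest part of the set. MiR-27b-3p, from the b cluster, was at 60242, 28503 and 23602 CPM, ranks 3, 9 and 9 among all miRNAs, and averaged 37449 ± 19891 CPM (SD, n = 3). MiR-27a-3p, its a-cluster counterpart, was at 27905, 14591 and 10194 CPM and averaged 17563 ± 9222 (SD, n = 3). Both were highest in library 1 and lowest in library 3, except that scaling by the deposited RPM put miR-27b-3p slightly lower in library 2 than in library 3, and miR-27b-3p was above miR-27a-3p in each library. Together they took 8.81%, 4.31% and 3.38% of counts, which was 46.9%, 66.2% and 67.6% of the counts of the 9 members. MiR-128-3p, whose seed is that of miR-27 shifted by a base, was at 3723, 929 and 1264 CPM.

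MiR-24-3p, made by both clusters, was at 62482, 16072 and 12391 CPM, ranks 2, 13 and 16, and averaged 30315 ± 27918 CPM (SD, n = 3), or 14231 once library 1 was left out. In library 1 it was the highest member and in libraries 2 and 3 it came second to miR-27b-3p. Set against both miR-27 guides, its counts stood at 0.709, 0.373 and 0.367 of theirs. Libraries 2 and 3 were close in this ratio and library 1 lay apart from them.

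The miR-23 guides differed the most from each other. MiR-23a-3p was at 36140, 4729 and 3221 CPM, ranks 10, 32 and 33, and averaged 14697 ± 18585 CPM (SD, n = 3), or 3975 once library 1 was left out. Its level in library 1 was 7.64 times that in library 2 and 11.2 times that in library 3. MiR-23b-3p was at 576, 1072 and 536 CPM, averaged 728 ± 299 (SD, n = 3), and was the member that was not highest in library 1. It was nonetheless below miR-23a-3p in every library.

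The passenger strands were scarce. MiR-27a-5p had 1125, 123 and 166 counts, or 374, 49.4 and 51.7 CPM, and its mean of 158 ± 187 CPM (SD, n = 3) was 50.6 without library 1. MiR-27b-5p had 138, 80 and 49 counts, or 45.9, 32.1 and 15.3 CPM. MiR-23b-5p had 96, 8 and 10 counts, or 31.9, 3.21 and 3.12 CPM, a mean of 12.7 that was 3.16 without library 1. MiR-23a-5p, from the hairpin with the more abundant miR-23 guide, had 30, 5 and 28 counts, or 9.97, 2.01 and 8.73 CPM. Of these 4 strands, miR-27a-5p and miR-23b-5p were far higher in library 1 than in the others, while miR-23a-5p was low in library 2 alone.

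**Figure D2:**
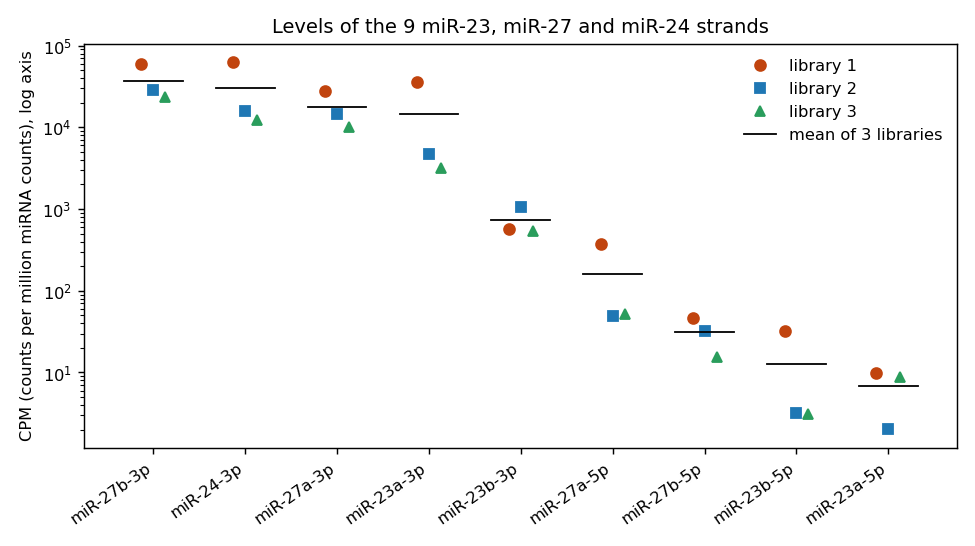
Level of each member in CPM on a log axis, 1 point per library, with the mean of the 3 libraries as a bar, ordered by the mean. Library 1 (circles) is on top for every member except miR-23b-3p, whose highest point, 1072 CPM, is library 2.

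By the mean the order was miR-27b-3p, miR-24-3p, miR-27a-3p, miR-23a-3p, miR-23b-3p, miR-27a-5p, miR-27b-5p, miR-23b-5p and miR-23a-5p, and library 2 followed it exactly. Among the 4 leading guides, the ranges of neighbours in this order overlapped and their means differed by less than the larger SD. Within each library, miR-24-3p was nonetheless above miR-27a-3p. MiR-24-3p changed places with miR-27b-3p in library 1, as did miR-23a-3p with miR-27a-3p. From miR-23a-3p down to miR-27b-5p, the ranges of neighbours did not overlap. MiR-27b-5p was above miR-23b-5p in each library, though their ranges overlapped. At the bottom, miR-23b-5p was above miR-23a-5p in 2 of the 3 libraries, and their ranges overlapped.

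Each member was compared among the 3 libraries by a chi-square test of its counts against the library totals, with p-values adjusted by Benjamini and Hochberg's method across the 353 miRNAs whose counts summed to 30 or more. All 9 members differed by more than counting error at an adjusted p below 0.05, as did 90.1% of all miRNAs tested, so passing this test does not set the members apart. The weakest was miR-23a-5p, with an adjusted p of 0.0014. Its call was lost without library 2 (adjusted p = 0.63), and that of miR-27a-5p without library 1 (adjusted p = 0.73), where miR-23b-5p had too few counts to be tested. The highest library was at least 2-fold above the lowest for 8 of the 9, against 79.6% of the miRNAs tested, and the coefficient of variation had a median of 62.1% for the members and 64.2% for all tested. Library 1 was the highest for 8 of the 9, against 60.3%. With TMM factors or DESeq2 size factors this held for 6, against 45.6% and 45% of the miRNAs tested, since miR-23a-5p then was higher in library 3 and miR-27b-5p in library 2.

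Which of the clusters dominated depended on the library and on the member. Summed over 4 arms each, the a cluster took 6.44%, 1.94% and 1.35% of miRNA counts and the b cluster 6.09%, 2.96% and 2.42%. The mean of the a cluster was 3.24% ± 2.79 (SD, n = 3), or 1.64% without library 1, and that of the b cluster 3.82% ± 1.98 (SD, n = 3). The a cluster thus made up 51.4% (Wilson 95% interval 51.2 to 51.6) of a plus b in library 1, 39.5% (39.3 to 39.8) in library 2 and 35.8% (35.5 to 36.1) in library 3. The mean share was 42.3% ± 8.15 (SD, n = 3). The a and b arms were nearly level in library 1, and b arms were in the majority in libraries 2 and 3. These shares leave out miR-24-3p and do not depend on how libraries are scaled. How reads that fit both miR-27 guides were counted is not given, and the part of such reads in these shares was not tested.

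The balance of miR-27 guides was nearly the same in the 3 libraries. Counts of miR-27a-3p were 0.463, 0.512 and 0.432 of those of miR-27b-3p, a log2 ratio of -1.11, -0.97 and -1.21. The mean was -1.10 ± 0.12 (SD, n = 3), with b above a in 3 of 3 libraries. The highest and lowest ratio differed by 0.25 on the log2 scale, the second smallest gap among 33 pairs counted in every library, whose median was 1.54. These pairs were matched only by names that differ in the letter a or b, so not all need be paralogs. The CPM of both miR-27 guides meanwhile differed more than 2-fold between libraries 1 and 3, but this depended on scaling. The log2 ratio of library 1 to 3 was 1.45 for miR-27a-3p and 1.35 for miR-27b-3p. With TMM factors it was 0.59 and 0.49, and with DESeq2 size factors 0.57 and 0.47. The guides differ by the single base C19U, and the sources used here do not give how reads that fit both were counted. The part of such reads in this ratio, in its small spread and in the likeness of the 2 guides was not tested.

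The balance of miR-23 guides, from the same hairpin clusters, was not steady, with library 1 lying apart from libraries 2 and 3. MiR-23a-3p had 62.8, 4.41 and 6.01 times the counts of miR-23b-3p, a log2 ratio of 5.97 (95% counting interval 5.90 to 6.04), 2.14 (2.08 to 2.20) and 2.59 (2.51 to 2.66). The mean was 3.57 ± 2.10 (SD, n = 3), or 2.36 without library 1, with a above b in 3 of 3 libraries. The gap between the highest and lowest ratio was 3.83, with only 2 of those 33 pairs above it. A gap above 1 was seen in 66.7% of the pairs. The miR-23 and miR-27 guides of a cluster thus did not keep a fixed proportion: miR-23a-3p stood at 1.30, 0.324 and 0.316 of miR-27a-3p, and miR-23b-3p at 0.00955, 0.0376 and 0.0227 of miR-27b-3p. In the a cluster library 1 had the highest proportion of miR-23, and in the b cluster it had the lowest. Without a sequence of miR-23b-3p, whether reads can fit both miR-23 guides was not checked. The part of such reads in these ratios was not tested.

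**Figure D3:**
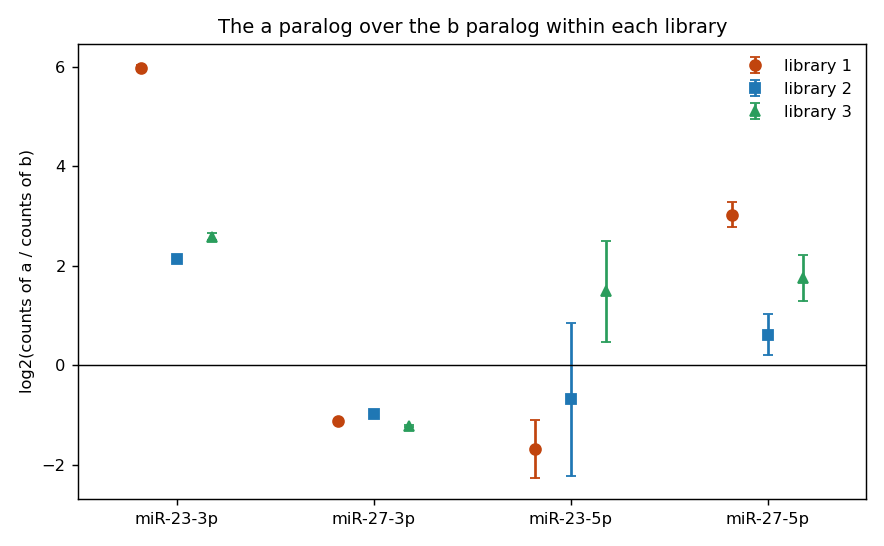
Log2 ratio of the a to the b paralog within each library for the miR-23 and miR-27 guides (3p) and passengers (5p); bars are 95% counting intervals, which hold no spread between libraries. The miR-27-3p points lie together between -1.21 and -0.97, whereas the miR-23-3p points run from 2.14 to 5.97.

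A test over all pairs of miRNAs whose names differ only in the letter a or b put these ratios on 1 footing. It used edgeR's quasi-likelihood test with library as a term on 43 pairs, of which 67.4% were called at a Benjamini-Hochberg adjusted p below 0.05. Of the 4 pairs here 2 were called. MiR-23a-3p was above miR-23b-3p by 3.43 ± 1.00 on the log2 scale (fitted value and its SE, edgeR, adjusted p = 0.039), in a direction called for 34.9% of pairs. Here and below the SE was worked out from the fitted log2 and the F statistic of the test. MiR-27b-3p was above miR-27a-3p, with a fitted log2 of a over b of -1.10 ± 0.24 (SE, edgeR, adjusted p = 0.018), in a direction called for 32.6% of pairs. The median absolute log2 over all pairs tested was 4.33. The miR-23 difference was 2.36 without library 1, 4.28 without library 2 and 4.06 without library 3, and was called each time. The miR-27 call was lost with DESeq2 (adjusted p = 0.079), with TMM factors, without a library term, and without library 2 or 3 (adjusted p from 0.014 to 0.25 over all alternatives), although the ratio itself stayed between -1.22 and -1.04. In this test the TMM factors were computed for the a and the b counts of each library separately, so they also rescale a against b.

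The 5p strands gave another balance than the guides. MiR-27a-5p had 8.15, 1.54 and 3.39 times the counts of miR-27b-5p, a log2 ratio of 3.03 (95% counting interval 2.77 to 3.28), 0.62 (0.22 to 1.03) and 1.76 (1.30 to 2.22). So a was above b in each library for the passengers of miR-27 and below b in each for its guides. The fitted difference for the passengers was 1.81 ± 0.62 (SE, edgeR), which missed the threshold at an adjusted p of 0.058. It was 1.18 without library 1 (adjusted p = 0.016) and 2.40 without library 2 (adjusted p = 0.065). With DESeq2 it was called (adjusted p = 0.012), and over all alternatives the adjusted p ran from 0.010 to 0.14. The log2 of a over b was higher in the 5p than in the 3p strands of miR-27 by 4.14, 1.59 and 2.97 in libraries 1 to 3, a mean of 2.90 ± 1.28 (SD, n = 3), or 2.28 without library 1 and 3.55 without library 2. In an exact two-sided permutation test of signs this gave p = 0.25, the smallest that 3 libraries allow.

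For miR-23 the passengers leaned the other way from the guides in 2 libraries. MiR-23a-5p had 0.313, 0.625 and 2.80 times the counts of miR-23b-5p, a log2 ratio of -1.68 (95% counting interval -2.27 to -1.09), -0.68 (-2.22 to 0.86) and 1.49 (0.47 to 2.51). In library 2, with 5 and 8 counts, the interval included equality. The paralog test gave -0.35 ± 0.84 (SE, edgeR, adjusted p = 0.73), with -0.19 without library 2, -1.27 without library 3 and -0.88 with no library term, none of them called (adjusted p from 0.20 to 0.92 over all alternatives). Without library 1 the pair had too few counts for the test. The log2 of a over b was lower in the 5p than in the 3p strands in all 3 libraries, with differences of -7.65, -2.82 and -1.10. Their mean was -3.86 ± 3.40 (SD, n = 3, exact two-sided permutation p = 0.25, again the smallest possible), and it was -1.96 without library 1 and -5.23 without library 3.

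The 5p strands of the miR-24 hairpins carry a copy number in their names and were counted per copy. MiR-24-2-5p of the a cluster had 9532, 4663 and 4384 counts (3168, 1873 and 1366 CPM), and miR-24-1-5p of the b cluster 6, 32 and 26 (1.99, 12.9 and 8.10 CPM). The a copy thus made up 99.9% (Wilson 95% interval 99.86 to 99.97), 99.3% (99.0 to 99.5) and 99.4% (99.1 to 99.6) of these 5p counts. For miR-27 the split of the passengers differed from that of the guides in each library, so the split of miR-24-3p cannot be read from its passengers. Together the 2 strands stood at 0.0507, 0.117 and 0.111 of the counts of miR-24-3p. On the opposite strand of the same hairpins, miR-3074-5p had 95, 11 and 11 counts, miR-3074-1-3p had 13, 3 and 4, and miR-3074-2-3p had 0 in each library.

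All 4 testable hairpins gave far more 3p than 5p counts. In edgeR's quasi-likelihood test of the arms over 157 precursors, with library as a term, 80.3% were called at an adjusted p below 0.05, 38.9% in favour of 3p and 41.4% in favour of 5p, and all 4 of the hairpins here were called in favour of 3p. Their median log2 of 5p over 3p was -8.80, against 0.17 over all precursors tested, with a median absolute log2 of 6.24. MiR-24 was not in this test, since its 5p and 3p names do not match.

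The arm ratios per library showed which hairpins were steady. For miR-27b the 3p strand had 1314, 887 and 1546 times the counts of the 5p strand, and the fitted log2 of 5p over 3p was -10.25 ± 1.03 (SE, edgeR, adjusted p = 3.37e-19). For miR-27a the excess was 74.6-fold, 295-fold and 197-fold, with a fitted value of -7.36 ± 0.96 (SE, edgeR, adjusted p = 1.14e-12). The miR-27b points of the libraries lay within 0.80 of each other on the log2 scale, and those of miR-27a within 1.98. A gap above 1 was seen for 86.5% of the 104 precursors with both arms counted in every library.

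The miR-23 hairpins moved more, and in different libraries. Their log2 arm ratios spanned 3.30 (miR-23a) and 4.21 (miR-23b) over the libraries. Counted from the smallest span, these ranked 75 and 89 among 104 precursors, whose median was 2.28. MiR-23a had only 30, 5 and 28 counts of 5p. For miR-23a the 3p excess was 3625-fold, 2355-fold and 369-fold, with a fitted log2 of -10.53 ± 1.12 (SE, edgeR, adjusted p = 1.41e-17). For miR-23b it was 18.04-fold, 334-fold and 172-fold, with a fitted log2 of -6.69 ± 1.18 (SE, edgeR, adjusted p = 7.84e-08). The 5p share of the miR-23b hairpin was thus 5.25% (Wilson 95% interval 4.32 to 6.37) in library 1 against 0.299% (0.152 to 0.589) and 0.578% (0.314 to 1.06) in libraries 2 and 3. That of miR-23a was 0.0276% (0.0193 to 0.0394) in library 1, 0.0424% (0.0181 to 0.0993, from 5 counts of 5p) in library 2 and 0.270% (0.187 to 0.390) in library 3. For miR-23a the intervals of libraries 1 and 2 overlapped, and library 3 lay above both. Leaving out single libraries moved the fitted log2 of miR-23b to -7.88 without library 1 and -5.74 without library 2, and that of miR-23a to -9.66 without library 1 and -11.52 without library 3. All these calls held.

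**Figure D4:**
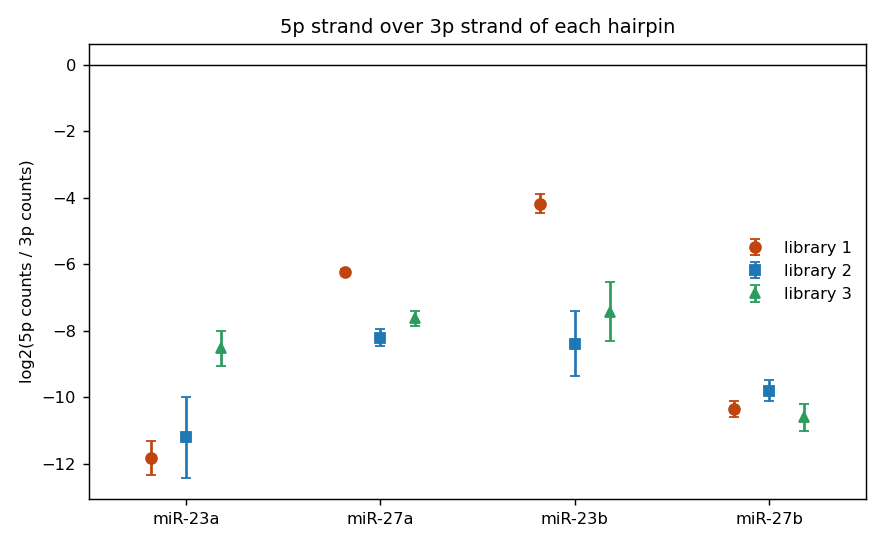
Log2 ratio of 5p to 3p counts of each hairpin per library, with 95% counting intervals. Every point is below 0; the miR-27b points lie between -10.59 and -9.79, and the library 1 point of miR-23b, at -4.17, is the closest to 0.

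Set among all 33 pairs over the 3 libraries, the guides of the 2 families lay at opposite ends. The wide gap of the miR-23 guides lay between library 1, at 5.97, and libraries 2 and 3, at 2.14 and 2.59. For the miR-27 guides libraries 2 and 3 were at -0.97 and -1.21. The pairs were not ranked without library 1. Only miR-125a-5p with miR-125b-5p varied less in its a over b ratio than the miR-27 guides, by 0.19 on the log2 scale, and only 2 pairs, the miR-29 3p and the miR-30 5p strands, varied more than the miR-23 guides. Pairs with few counts vary more through counting error alone. Among 9 pairs with at least 1000 counts of each miRNA in every library, a limit chosen after the data were seen, the median gap was 1.97. There the miR-23 guides had the widest gap and the miR-27 guides the second narrowest.

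**Figure D5:**
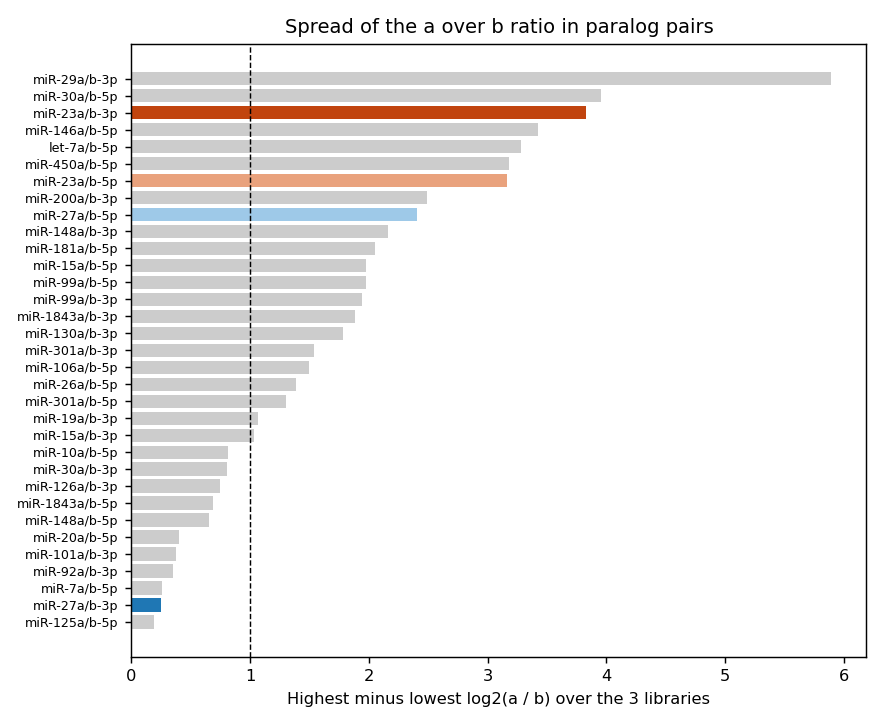
Highest minus lowest log2 ratio of a to b over the 3 libraries for 33 pairs counted in every library; the dashed line marks a gap of 1. The miR-27 guides (dark blue, 0.25) are second from the bottom and the miR-23 guides (dark red, 3.83) just below the 2 widest pairs.

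The miRNAs with the most similar pattern over the 3 libraries were sought among 128 others with a mean of at least 100 CPM, by the Euclidean distance of log2(CPM + 1) centred on its mean. With 3 points each, this is a description only. Nearest to miR-27b-3p was miR-101b-3p, at a distance of 0.012 and with 2155, 1019 and 835 CPM, then miR-100-5p at 0.074 and miR-421-3p at 0.13. For miR-27a-3p they were miR-100-5p at 0.10, miR-101b-3p at 0.16 and miR-24-2-5p, of the same cluster, at 0.18, about as near as miR-27b-3p at 0.17. For miR-24-3p they were miR-125b-2-3p and miR-30d-5p at 0.24 each and let-7d-3p at 0.27.

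MiR-23a-3p was closest to miR-674-3p at 0.21, miR-378b at 0.32 and miR-339-3p at 0.34, and its own cluster mate miR-27a-3p lay at 1.65. MiR-27a-5p was closest to miR-378a-3p at 0.14, with 42113, 5710 and 5288 CPM, then miR-423-3p at 0.31 and miR-25-3p at 0.36. MiR-23b-3p was closest to miR-19a-3p at 0.35, miR-15b-5p at 0.38 and miR-142a-5p at 0.45. It lay at 2.96 from miR-23a-3p, farther than from any other member compared, and at 1.41 from miR-27b-3p of its own cluster. By this distance the miR-27 guides of different clusters lay closer to each other than to the miR-23 guide of their own cluster.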

How the data were processed

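Small RNA libraries were made by ligation of 3′ and 5′ adapters, PCR and gel selection and sequenced as single reads of 50 bases, per the labels' protocols. No molecular identifiers are mentioned, so counts are of PCR products. The submitters' processing notes name bcl2fastq, BWA and mm10. Not given in the sources used here were the trimming, the mismatch limits and the handling of reads that fit more than 1 miRNA. The authors deposited a count per mature miRNA, used for all tests, and beside it a deposited RPM value, which as worked out from the columns divides by 14047692, 13995845 and 14002577 and served as an alternative scaling. CPM were computed on the sum of all miRNA counts in a library. Tests used edgeR 4.0.16 with the miRNA totals as library sizes and a summed count of at least 60, and a chi-square test in SciPy 1.17.1, both tested on simulated data, with a threshold of 0.05. The chi-square p-values set counts against counting error only. The quasi-likelihood test of edgeR gives no SE, so each SE is the absolute fitted log2 divided by the square root of the F statistic. These SEs and the p-values of edgeR take their spread in part from all the pairs or precursors tested. DESeq2 1.42.0 was an alternative. Of 95 pairs matched by name for the paralog test, 2 with counts were left out because both names carried identical counts. The members, lists, named miRNAs (all members, their copy-numbered and antisense partners, miRNAs with the same or a shifted seed, and the 3 nearest by likeness) and tests were chosen with earlier results of these data known.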

Additional observations from a re-analysis of the deposited data

How the results depend on the processing

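Without library 1, 177 miRNAs differed by chi-square in place of 318, where fewer reached the summed count; over the libraries left out in turn the count ran from 177 to 284. Of the 9 members, 7 were called without library 1, 8 without library 2 and 9 without library 3, with no count filter or with TMM factors. From the 5p arms only, the a cluster made up 73.0% of a plus b in place of 42.3%. The fitted log2 of a over b of the miR-27 guides lost its call with DESeq2 (-1.10), TMM factors computed separately for a and b counts (-1.22) and no library term (-1.09), and ran from -1.16 to -1.04 with libraries left out. That of the miR-27 passengers gained a call with DESeq2 (1.81), the same TMM factors (1.67) and no library term (2.35), and ran from 1.18 to 2.40 with libraries left out. The cause was not tested. For the miR-23 passengers no value was had without library 1, since the pair then fell below the summed count of 60. With TMM factors of whole libraries, log2 ratios of library 1 shifted by -0.61 against library 2 and by -0.86 against library 3 for all miRNAs. The log2 ratio of library 1 to 3 thus turned to -0.67 (TMM) and -0.69 (DESeq2 size factors) for miR-23a-5p and to -0.76 and -0.78 for miR-23b-3p, and that of library 1 to 2 to -0.10 and -0.14 for miR-27b-5p. The log2 ratio of library 2 to 3 turned to -0.32 with the RPM scaling, -0.20 with TMM and -0.18 with DESeq2 size factors for miR-23b-5p, and to -0.093 with the RPM scaling for miR-27b-3p. Arm calls of the 4 hairpins and the counts of calls in the arm and paralog tests stayed within 1.5 times. No paired analysis was possible because there is 1 group. With 5 to 138 counts a library, strands other than miR-27a-5p among the passengers are limited by depth.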
